A study of Rattus norvegicus with 3 samples.

Results

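Prostaglandin synthesis and reception were followed through 10 genes, 2 cyclooxygenases (Ptgs1 and Ptgs2), 4 terminal synthases (Ptgds, Ptges, Ptges2 and Ptges3) and 4 prostaglandin E2 receptors (Ptger1, Ptger2, Ptger3 and Ptger4). They were chosen by name, as the rows whose gene symbol equals a listed symbol, and each symbol stood in 1 row of the 30957 genes listed. RNA of the motor cortex was sequenced from 3 male Sprague-Dawley rats, numbered 12, 24-4 and 33, which had cerebral ischemia and reperfusion followed by electroacupuncture at the GB20 (Fengchi) acupoints, with a labelled time of 8 weeks. Cerebral ischemia and reperfusion is an interruption and return of the brain's blood supply, and electroacupuncture passes a current through acupuncture needles. The labels do not say how the ischemia was produced, what the time is counted from or which hemisphere was sampled. All 3 rats form 1 group, and rats without ischemia or without electroacupuncture were not analysed here, so the values give levels and their spread between treated animals and no effect of either. Levels are FPKM, a fragment count divided by gene length and library size, so genes within a library can be compared with each other.

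Prostaglandins are short-lived lipid signals made from arachidonic acid, which phospholipases release from membranes. Cyclooxygenases turn it into prostaglandin H2, terminal synthases turn that into prostaglandin D2, E2 and others, and the products act on G protein-coupled receptors of nearby cells. In the cortex, cyclooxygenase-1 is known mainly from microglia and cyclooxygenase-2 from excitatory neurons, where synaptic activity and injury induce it. Ptgds, which makes prostaglandin D2 and also carries lipophilic molecules in the cerebrospinal fluid, is known from the meninges, the choroid plexus and oligodendrocytes.

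The 3 libraries held 464587 to 489810 FPKM in sum, and their depths were estimated at 13020000 to 17250000 fragments. Markers of neurons, astrocytes, oligodendrocytes and microglia were present in every rat, as the labelled tissue implies. The libraries differed in markers of several cell types, among them those known to express Ptgds. The 8 matched choroid plexus genes were all lowest in rat 24-4 and highest in rat 33. Of all genes averaging 1 FPKM or more, 33.3% were lowest in rat 24-4 and 42% highest in rat 33. Of the 8, 5 passed a limma test of variability between the rats, against 0.102% of all genes tested. With rat 24-4 or the mitochondrial genome left out, that test called 0 genes of any kind. All 8 oligodendrocyte markers and 9 of 12 tested meningeal ones were also highest in rat 33, beside the same 42%, and 0 of either list passed. Shifts were not limited to these types. All 8 microglial markers were highest in rat 33 and lowest in rat 12, where 37.9% of genes tested were lowest. In rat 33, 6 of 7 glutamatergic and 6 of 6 GABAergic neuron markers were lowest, beside 28.9% of genes tested. Of these markers too, 0 passed. In bulk tissue, fewer cells of a type and less RNA per cell cannot be told apart.

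By the median of their members, the terminal synthases were the most abundant of the 3 roles, though Ptges lay below both cyclooxygenases in each rat. The cyclooxygenases were intermediate and the receptors lay near the limit of detection. On the log2(FPKM + 1) scale the median level of the synthases was 4.96 ± 0.07 (SD, n = 3 rats, here and below), that of the cyclooxygenases 2.43 ± 0.31 and that of the receptors 0.36 ± 0.09. The synthase median lay midway between Ptges2 and Ptges3, which deviated from their means by 0.35 and -0.40 in rat 24-4. Its small SD therefore understates their spread, since each synthase alone had an SD of 0.35 to 0.37. For comparison, the 13754 genes averaging 1 FPKM or more had a median level of 3.45, 3.43 and 3.56 in rats 12, 24-4 and 33. Among the 10 genes, Ptgds ranked first in each rat, followed by Ptges3 and Ptges2. Then came Ptgs2 and Ptgs1 in all 3 rats. Ptges was next in rats 12 and 24-4, while in rat 33 Ptger3 (0.937 FPKM) stood above Ptges (0.857). Of the 10 genes, 6 reached a mean FPKM of 1 and entered the test of variability, and the other 4 were the receptors.

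**Figure D1:**
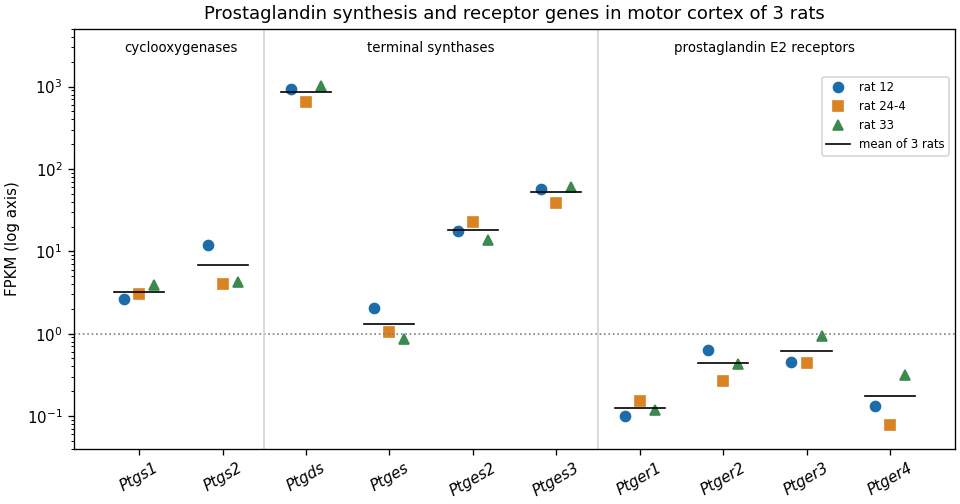
FPKM of each gene (log axis) in rats 12, 24-4 and 33, grouped by role, with a line at the mean of the 3 rats and a dotted line at an FPKM of 1. Ptgds is at 644 or more in every rat, while each receptor value lies below 1.

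The cyclooxygenases, which catalyse the committed step, differed in how they varied between the rats. Ptgs2 (ENSRNOG00000002525, chromosome 13, 67351087 to 67359335 on Rnor_6.0) stood at 12.0, 4.04 and 4.29 FPKM in rats 12, 24-4 and 33. Rat 12 was 2.98 times above the lowest rat, and the other two lay close together. Among the 18983 genes above 0 in any rat it held the percentiles 67.8, 47.0 and 44.0. Ptgs1 (ENSRNOG00000007415, chromosome 3, 15560712 to 15582344) had an FPKM of 2.60, 3.02 and 3.95 in rats 12, 24-4 and 33, a narrower spread, with rat 33 highest, and with rat 12 lowest except when the mitochondrial genome was left out, which put rat 24-4 lowest. The FPKM ratio of Ptgs2 to Ptgs1 was therefore 4.62, 1.34 and 1.09, in the order 12, 24-4, 33. Ptgs2 exceeded Ptgs1 in 3 of 3 rats, and the within-rat difference of Ptgs1 minus Ptgs2 was -0.76 ± 0.96 on the log2(FPKM + 1) scale. Over all 3 rats the exact two-sided sign-flip permutation test gave p = 0.25, the smallest value 3 rats allow (n = 3). The SD of this difference is larger than its mean, and without rat 12 the difference was -0.21.

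The test of variability set a gene's variance over the rats against the variance usual at its expression level, using limma on log2(FPKM + 1) with p-values adjusted by Benjamini-Hochberg over the 13754 genes. No member passed an adjusted p of 0.05, against 14 genes or 0.102% of all genes tested. At an unadjusted limma p under 0.05 the count was also 0 of 6, against 820 genes or 5.96%. Ptgs2 came nearest, with an SD of 0.77 on that scale, an unadjusted limma p of 0.0575 and an adjusted p of 0.856. Its unadjusted p was 0.0428 when libraries were scaled by median-of-ratios size factors, 0.00978 without rat 33 and 0.919 without rat 12. The other 5 had SDs from 0.23 (Ptgs1) to 0.37 (Ptges), unadjusted limma p-values from 0.402 to 0.723 and an adjusted p of 0.993, where the median SD of all genes tested was 0.32. By FPKM, the highest value was at least 2 times the lowest in 2 of the 6 members (Ptgs2 and Ptges), against 30% of genes tested. The highest rat was 12 for 2 of the 6, 24-4 for 1 and 33 for 3, against 23.8%, 34.2% and 42% of genes tested. The lowest rat was 12 for 1, 24-4 for 3 and 33 for 2, against 37.9%, 33.3% and 28.9%. These counts hold for the deposited scaling, since the highest rat of Ptgds and Ptges3 moves from 33 to 12 under both rescalings and the lowest of Ptgs1 from 12 to 24-4 under 1 of them.

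Promoter sequence of the cyclooxygenases is shown because their values parted between the rats, that of Ptges because it shared its highest rat with Ptgs2, and that of Ptgds because it was the most abundant member. The lines give the 250 bases before the annotated start, 5′ to 3′ on the gene's strand, from RefSeq on build GRCr8, which is not the build of the expression files. Of the 10 genes, 9 had an entry, the exception being Ptges2. The windows are chr13:64713813-64714062 (plus strand) for Ptgs2, chr3:39981169-39981418 (plus strand) for Ptgs1, chr3:34586988-34587237 (minus strand) for Ptges and chr3:28682979-28683228 (minus strand) for Ptgds. Capitals mark matches on either strand to 7 motifs, the TATA box (TATAAA), the CCAAT box (CCAAT), the GC box (GGGCGG), the E-box (CACGTG), the core of the cyclic AMP response element (TGACG), the AP-1 site (TGANTCA) and the NF-kB site.
Ptgs2: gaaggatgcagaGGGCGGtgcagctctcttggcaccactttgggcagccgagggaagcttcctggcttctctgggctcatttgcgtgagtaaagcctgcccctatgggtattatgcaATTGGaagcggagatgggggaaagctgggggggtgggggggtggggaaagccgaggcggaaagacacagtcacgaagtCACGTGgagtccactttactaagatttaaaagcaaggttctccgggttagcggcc
Ptgs1: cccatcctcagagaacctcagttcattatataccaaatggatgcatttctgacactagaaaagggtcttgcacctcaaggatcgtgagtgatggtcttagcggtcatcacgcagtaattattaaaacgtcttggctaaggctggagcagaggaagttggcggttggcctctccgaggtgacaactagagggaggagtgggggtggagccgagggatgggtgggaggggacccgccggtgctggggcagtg
Ptges: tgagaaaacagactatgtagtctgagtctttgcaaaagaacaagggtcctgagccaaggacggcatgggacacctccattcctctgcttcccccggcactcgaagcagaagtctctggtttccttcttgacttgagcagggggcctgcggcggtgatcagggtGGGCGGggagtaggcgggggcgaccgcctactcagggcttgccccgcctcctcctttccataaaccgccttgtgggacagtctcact
Ptgds: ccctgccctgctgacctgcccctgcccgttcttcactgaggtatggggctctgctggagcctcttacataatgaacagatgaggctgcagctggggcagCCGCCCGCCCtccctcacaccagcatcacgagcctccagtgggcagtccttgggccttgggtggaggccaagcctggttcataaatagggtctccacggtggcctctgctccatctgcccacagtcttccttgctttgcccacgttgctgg

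The Ptgs2 window held 1 E-box, at bases 55 to 50 before the start, together with 1 CCAAT box on the minus strand and 1 GC box. Of 33469 RefSeq windows of the same length, 5.59% held an E-box, 34.0% a CCAAT box and 30.5% a GC box. The Ptges window held 1 GC box, and the Ptgds window held 2, which overlap each other. In the Ptgs1 window none of the 7 motifs was found. The TATA box was in 12.9% of all windows, the cyclic AMP response core in 18.2%, the AP-1 site in 6.34% and the NF-kB site in 6.33%, and none of these was in the 4 windows shown. These matches describe letters in a window, and binding was not measured.

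Ptgs2 is itself an activity-induced gene, so it was set beside 11 genes that induce it or are induced with it. Of these, 8 were tested, 0 passed the adjusted limma test and 4 had an unadjusted limma p under 0.05, against 0.102% and 5.96% of all genes tested. Those 4 were Fos, Egr1, Arc and Nr4a1, immediate early genes of active neurons. The list was chosen with earlier results of these data known, so its counts are not independent of them. Egr1, the most abundant, stood at 81.8, 34.2 and 18.2 FPKM in rats 12, 24-4 and 33, with an unadjusted limma p of 0.0103 and an adjusted p of 0.555. Arc stood at 15.8, 4.99 and 3.72 FPKM, and Fos at 12.8, 3.46 and 5.95. Nr4a1 stood at 20.2, 10.3 and 6.28 FPKM. Like Ptgs2, all 4 were highest in rat 12, beside 23.8% of genes tested. Rat 12 exceeded rat 24-4 by 2.98 times for Ptgs2 and by 1.96 (Nr4a1) to 3.69 times (Fos) for these genes. It exceeded rat 33 by 2.81 times for Ptgs2 and by 2.15 (Fos) to 4.50 times (Egr1) for them. Only Fos was lowest in rat 24-4 as Ptgs2 was, while Egr1, Arc and Nr4a1 were lowest in rat 33.

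The other 4 tested genes of that list were highest in rat 33, as were 42% of genes tested. They were Bdnf, a neurotrophin, with an FPKM of 2.74, 1.15 and 3.92, the interleukin-1 receptor gene Il1r1 with 1.79, 1.98 and 4.80, Nfkb1 with 9.16, 8.02 and 11.9, and Nfkbia with 9.28, 11.4 and 16.3 in rats 12, 24-4 and 33. The inflammatory inducers Il1b, Tnf and Il6 stayed below an FPKM of 0.4 in every rat. Taken over its 8 tested genes, the list had a median deviation from the mean of the rats of 0.48, -0.26 and 0.08, against -0.06, 0.01 and 0.07 for all genes tested. Markers of glutamatergic neurons had a median deviation of 0.52, 0.42 and -0.92 in rats 12, 24-4 and 33, beside 0.89, -0.48 and -0.41 for Ptgs2. Their part in the Ptgs2 values was not tested.

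**Figure D2:**
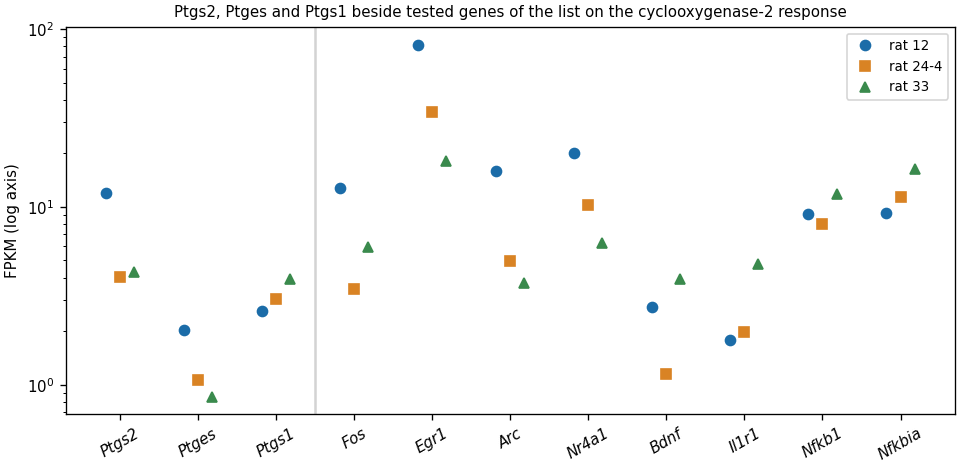
FPKM (log axis) of Ptgs2, Ptges and Ptgs1 on the left and of the 8 tested genes of the list on the right, 1 point per rat. Fos, Egr1, Arc and Nr4a1 have their highest point in rat 12, as Ptgs2 and Ptges do, and the other 4 listed genes have it in rat 33.

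Ptgds, the brain-type prostaglandin D2 synthase (ENSRNOG00000015550, chromosome 3, 2686123 to 2689084), was by far the most abundant member. It stood at 943, 644 and 1006 FPKM in rats 12, 24-4 and 33, or 0.198%, 0.139% and 0.205% of all FPKM of a library. Rat 24-4 was lowest, and rats 12 and 33 lay close together, with rat 33 higher in the deposited values and rat 12 higher after either rescaling, by size factors or without the mitochondrial genome. It held the percentiles 99.9, 99.7 and 99.8 among genes above 0.

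The choroid plexus is one known source of this transcript. Its 8 matched markers summed to an FPKM of 3335, 129 and 13166 in rats 12, 24-4 and 33, with Ttr highest (3233, 124 and 12747), Prlr lowest (0.968, 0.0162 and 4.44) and none listed at 0. From rat 24-4 to rat 33 that sum differed 102-fold, and Ptgds 1.56-fold. Both had their lowest value in rat 24-4, under all 3 scalings.

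The meninges are a further known source. All 14 genes of that list were matched, 1 of them (Col1a2) was listed at 0 in all rats, and 0 of 12 tested passed the adjusted limma test. The list summed to 320, 450 and 849 in rats 12, 24-4 and 33, mostly Cldn11 (217, 393 and 585), which is also a myelin gene. Without Cldn11, a choice made after its values were seen, the sum was 103, 56.2 and 264, lowest in rat 24-4 as Ptgds was. Single genes of the list, also named after their values were seen, did not share 1 order. On the log2(FPKM + 1) scale, Slc13a4 and Igf2 had the largest ranges of the list. Slc13a4 had an FPKM of 17.2, 3.499 and 52.7, and Igf2 had 34.1, 7.55 and 97.6. Both had the order of rats seen in the choroid plexus genes. The sum without Cldn11 keeps both, and how far its low value in rat 24-4 rests on them was not tested. Lum had an FPKM of 2.88, 4.26 and 14.5, and Aldh1a2 had 7.73, 3.98 and 3.33. The lowest, Slc47a1, had 1.10, 0.890 and 0.668. The list's median deviation was -0.18, -0.31 and 0.77 in rats 12, 24-4 and 33, beside 0.15, -0.40 and 0.24 for Ptgds.

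Oligodendrocyte genes, the third known source, were abundant in every rat. Their 8 markers summed to an FPKM of 5472, 7124 and 12415 in rats 12, 24-4 and 33, with a median deviation of -0.44, -0.08 and 0.59, none listed at 0, and Mbp highest (2334, 3669 and 5460). Their lowest rat by sum was rat 12, in which Ptgds had 943. The part that choroid plexus, meninges or oligodendrocytes had in the Ptgds values was not tested.

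**Figure D3:**
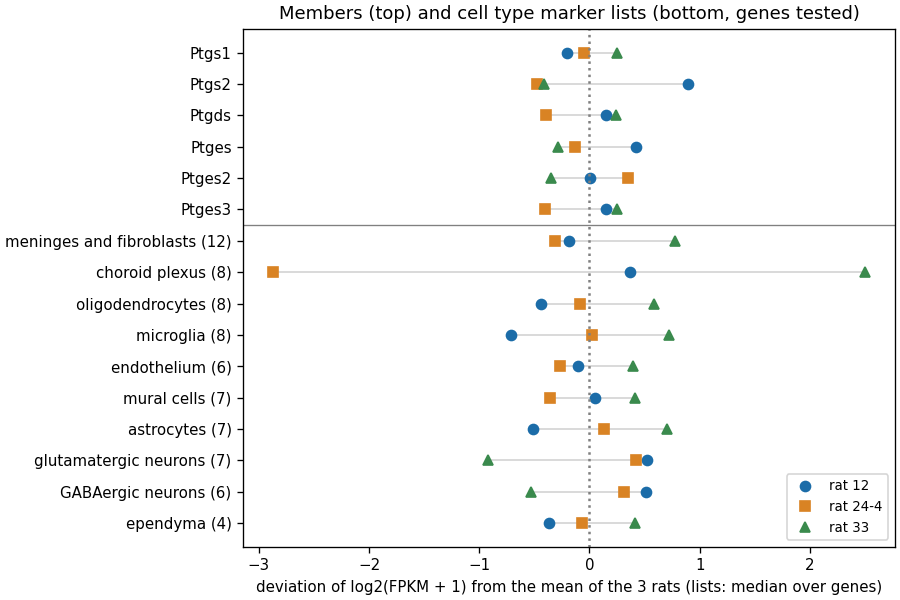
Deviation of log2(FPKM + 1) from the mean of the 3 rats for the 6 tested members (top) and, as medians over the genes tested, for 10 marker lists (bottom, number of genes in brackets). The choroid plexus list runs from -2.87 in rat 24-4 to 2.50 in rat 33, while Ptgds runs from -0.40 to 0.24.

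Hpgds, the haematopoietic prostaglandin D2 synthase of mast cells and some microglia, had an FPKM of only 0.278, 0.642 and 1.05 in rats 12, 24-4 and 33, resting on an estimated 5, 13 and 16 fragments. Ptgds exceeded it in all 3 rats, and the within-rat difference was 9.03 ± 0.46 on the log2(FPKM + 1) scale (exact sign-flip permutation p = 0.25, n = 3).

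Of the 3 prostaglandin E2 synthases, the inducible one was the least abundant. Ptges, which encodes the membrane-bound enzyme that is induced with cyclooxygenase-2 (ENSRNOG00000006320, chromosome 3, 9727408 to 9738752), had an FPKM of 2.03, 1.06 and 0.857 in rats 12, 24-4 and 33. Rat 12 was highest under all 3 scalings, as for Ptgs2, and the values rest on an estimated 39, 23 and 14 fragments. Counting error alone (exact Poisson, 95%) spans 1.44 to 2.77 FPKM in rat 12, 0.674 to 1.60 in rat 24-4 and 0.469 to 1.44 in rat 33. The span of rat 24-4 overlaps both others, and those of rats 12 and 33 meet at their edges without overlapping. Ptgs2 exceeded Ptges in 3 of 3 rats, by a within-rat difference of 1.63 ± 0.42 on the log2(FPKM + 1) scale (exact sign-flip permutation p = 0.25, n = 3).

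Ptges2 encodes a membrane-associated synthase of the Golgi and cytosol (ENSRNOG00000014050, chromosome 3, 11424099 to 11431402). Its FPKM was 17.8, 23.0 and 13.7 in rats 12, 24-4 and 33. It was the only one of the 6 tested members whose highest value was in rat 24-4, where 34.2% of genes tested had theirs. Ptges3 encodes p23, a cytosolic synthase that is also a co-chaperone of Hsp90 (ENSRNOG00000002642, chromosome 7, 2479311 to 2497013). Its FPKM was 56.6, 38.2 and 60.6, lowest in rat 24-4 under all 3 scalings, and highest in rat 33 as deposited but in rat 12 under both rescalings. A further row, Ptges3l1 (chromosome X), had an FPKM of 2.84, 1.73 and 2.34, and whether fragments were shared between these similar genes was not tested.

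The order Ptges3, Ptges2, Ptges held in each rat. Ptges2 minus Ptges3 was -1.46 ± 0.69 on the log2(FPKM + 1) scale, Ptges minus Ptges2 was -3.05 ± 0.45 and Ptges minus Ptges3 was -4.52 ± 0.46 (exact sign-flip permutation p = 0.25 for each, n = 3). In FPKM, Ptges3 stood 3.18, 1.66 and 4.41 times above Ptges2 in rats 12, 24-4 and 33, so the gap was narrowest in rat 24-4. Ptgds exceeded Ptges, the prostaglandin E2 synthase induced by inflammation, by 8.55 ± 0.46 on the log2 scale.

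**Figure D4:**
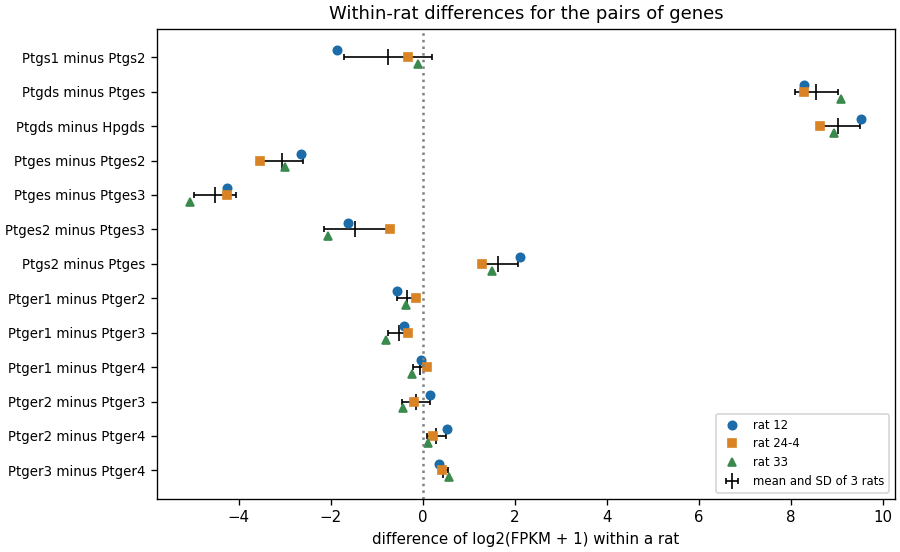
Within-rat difference of log2(FPKM + 1) for 13 pairs of genes, with 1 point per rat and the mean and SD of the 3 rats in black. All 3 points lie on one side of 0 in 11 pairs, and the exceptions are Ptger1 minus Ptger4 and Ptger2 minus Ptger3.

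All 4 prostaglandin E2 receptors had low transcript levels. Fragment numbers were estimated from the whole-number steps of their FPKM, and the largest estimate for a receptor was 35. The search took the smallest numbers that fitted and stopped at 40, so the estimates may be too low. Ptger3, which encodes EP3, a receptor that mostly lowers cyclic AMP (ENSRNOG00000010325, chromosome 2, 263895241 to 263979698), had an FPKM of 0.454, 0.444 and 0.937 in rats 12, 24-4 and 33. These correspond to an estimated 20, 22 and 35 fragments, and the 95% Poisson interval of rat 33 (0.653 to 1.304 FPKM) overlapped those of rat 12 (0.278 to 0.702) and rat 24-4 (0.279 to 0.673). Ptger2, which encodes EP2, a receptor that raises cyclic AMP (ENSRNOG00000050968, chromosome 15, 19338175 to 19350210), had an FPKM of 0.632, 0.266 and 0.431, from an estimated 19, 9 and 11 fragments. Rat 12 was highest and rat 24-4 lowest, with intervals of 0.381 to 0.987 and 0.122 to 0.506 that overlap.

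Ptger4 and Ptger1 were close to the limit of detection. Ptger4 encodes EP4, which also raises cyclic AMP (ENSRNOG00000013240, chromosome 2, 54952821 to 54963448), and had an FPKM of 0.133, 0.0787 and 0.313 in rats 12, 24-4 and 33, from an estimated 3, 2 and 6 fragments. Ptger1 encodes EP1, which raises intracellular calcium (ENSRNOG00000004094, chromosome 19, 24800072 to 24803373), and had an FPKM of 0.102, 0.151 and 0.120, from an estimated 3, 5 and 3 fragments. For both genes the Poisson intervals of all 3 rats overlapped, which is not a test of a difference between rats.

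By mean FPKM the receptors ran from Ptger3 through Ptger2 and Ptger4 to Ptger1, on few estimated fragments. Ptger3 minus Ptger4 was 0.45 ± 0.10 and Ptger2 minus Ptger4 was 0.29 ± 0.21 on the log2(FPKM + 1) scale, both above 0 in 3 of 3 rats. Ptger1 minus Ptger2 was -0.35 ± 0.21 and Ptger1 minus Ptger3 was -0.51 ± 0.25, both below 0 in 3 of 3 rats (exact sign-flip permutation p = 0.25 for each of these 4 pairs, the smallest possible with n = 3). The 95% Poisson intervals of Ptger4 overlapped those of Ptger3 and of Ptger2 in all 3 rats. Those of Ptger1 and Ptger2 overlapped except in rat 12, and those of Ptger1 and Ptger3 except in rat 33. Overlap of intervals is not a test of a difference, and the fragments of these pairs were not tested against each other. Without rat 12, Ptger2 minus Ptger4 was 0.18. Ptger2 minus Ptger3 was -0.15 ± 0.30, with rat 12 opposite to the others (exact permutation p = 0.5, n = 3), -0.31 without rat 12 and -0.01 without rat 33. Ptger1 minus Ptger4 was -0.06 ± 0.16, with rat 24-4 opposite (exact permutation p = 0.75, n = 3), -0.13 without rat 24-4 and 0.0265 without rat 33.

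The receptors of the other prostanoids were in the same low range. Tbxa2r, the thromboxane receptor, had an FPKM of 0.894, 0.612 and 0.568 in rats 12, 24-4 and 33, and Ptgdr, the DP1 receptor for prostaglandin D2, had 0.0700, 0.374 and 0.743. The latter values rest on an estimated 1, 6 and 9 fragments. Ptgdr2 (0.163, 0.109 and 0.192), Ptgfr (0.412, 0.251 and 0.128) and Ptgir (0.132, 0.202 and 0.468), the receptors for prostaglandin D2, prostaglandin F2alpha and prostacyclin, complete the set. Of the 9 prostanoid receptor genes of both lists, none reached an FPKM of 1 in any rat. Ptgfrn, a membrane protein that is no prostanoid receptor itself and was listed for its name, had 24.1, 15.1 and 9.08, with an unadjusted limma p of 0.0782 and an adjusted p of 0.902.

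**Figure D5:**
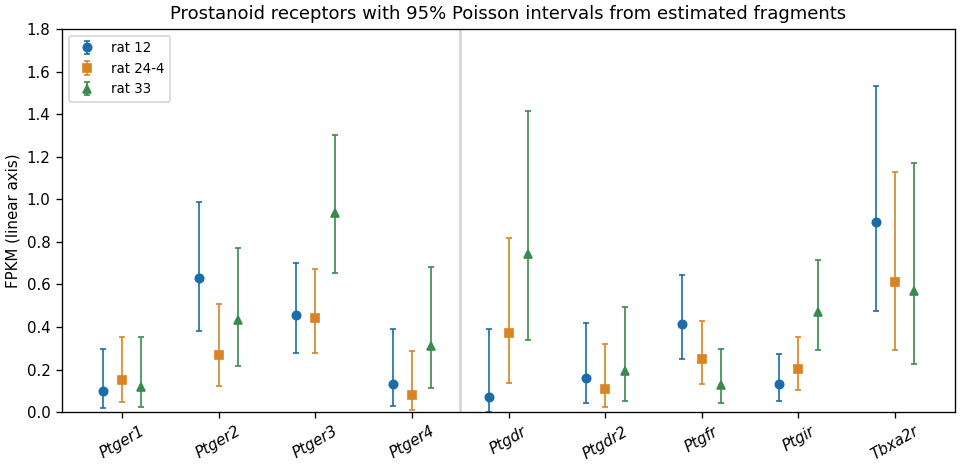
FPKM (linear axis) of the 4 prostaglandin E2 receptors (left) and 5 other prostanoid receptors (right) by rat, with bars for exact 95% Poisson intervals from the estimated fragments, which cover counting error only. Every value lies below 1, and the 3 intervals of Ptger1 and of Ptger4 overlap.

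Of the 60 symbols in 6 lists around the pathway, 58 were matched, and 1 of the other two, Prxl2b, is a newer name of the matched Fam213b. Of the matched genes, 36 were tested and 0 passed the adjusted limma test, against 0.102% of all genes. Among the 15 matched genes that release arachidonic acid, 11 were tested and 1 had an unadjusted limma p under 0.05. That gene was Pla2g5, a secreted phospholipase, with an FPKM of 4.94, 0.589 and 20.2 in rats 12, 24-4 and 33, the order of rats seen in the choroid plexus genes, with an unadjusted limma p of 0.000476 and an adjusted p of 0.174. The part of the choroid plexus in it was not tested. Pla2g4a, the cytosolic phospholipase that feeds the cyclooxygenases, had 1.72, 1.15 and 3.60. Pla2g16 (30.6, 50.2 and 76.2) and Mgll, which releases arachidonic acid from an endocannabinoid (54.2, 61.9 and 32.6), were the most abundant of the list. Pla2g10 was listed at 0 in all rats. The list's median deviation was 0.00, -0.01 and 0.08.

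Besides Ptgds and the prostaglandin E2 synthases, 7 other prostanoid synthases were listed and matched, 1 of them (Fam213b) under the older of its symbols in the list. Of these, 5 were tested, with 0 passing the adjusted limma test and 0 at an unadjusted p under 0.05. Akr1b1, an aldose reductase that can make prostaglandin F2alpha, had the highest FPKM, at 34.1, 60.2 and 50.5 in rats 12, 24-4 and 33. Tbxas1, the thromboxane synthase of microglia and platelets, had 1.36, 1.45 and 3.68, and Ptgis, the prostacyclin synthase of vessels, had 0.796, 0.627 and 1.95. Of the 5 tested, 3 were highest in rat 24-4 and 2, Tbxas1 and Ptgis, in rat 33, against 34.2% and 42% of all genes tested. The list's median deviation was -0.19, 0.17 and 0.10.

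Prostaglandin transport and breakdown genes were highest in rat 33 in 6 of 7 tested cases, where 42% of all genes tested were. Again 0 of the 7 passed the adjusted limma test, and 0 had an unadjusted p under 0.05. Hpgd, which inactivates prostaglandins, had an FPKM of 0.776, 1.11 and 1.97 in rats 12, 24-4 and 33, and Slco2a1, the prostaglandin uptake carrier, had 1.67, 0.742 and 2.19. The largest range was that of Abcc4, an exporter of prostaglandins, with 3.33, 2.94 and 7.92, and the highest level that of Ptgr2, a reductase of their breakdown products, with 17.6, 16.0 and 28.1. The list's median deviation was -0.17, -0.08 and 0.39.

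Patterns across 3 rats match many genes by their number alone, so likeness was given as the largest difference, over the rats, between deviations on the log2(FPKM + 1) scale. Ptgds and Ptges3 were each among the 3 genes most like the other, at 0.00638, and 386 of the tested genes lay within 0.1 of Ptgds. For Ptgds the 2 nearer genes were Mtr (3.22, 1.89 and 3.51 FPKM in rats 12, 24-4 and 33) and Zfp949 (3.28, 1.90 and 3.55). Ptgs2 had 6 genes within 0.1, led by Plcb1 (57.0, 22.8 and 22.5) and the glycine receptor subunit gene Glrb (85.5, 34.8 and 34.5). Over the tested members the number was highest at the smallest SD, 501 for Ptgs1 (SD 0.23), and lowest at the largest, 6 for Ptgs2 (SD 0.77). Between these it did not follow the SD throughout, as Ptges2 had 374 and Ptges3 379 at an SD of 0.35 each. A low number can go with a large SD and does not by itself mark a rare pattern. Ptges had 144 within 0.1, led by Actn1 (28.1, 18.5 and 16.8). Ptges2 was most like Tesk1 (14.6, 18.7 and 11.2), Ptgs1 most like Ccdc107 (25.6, 28.8 and 35.6) and Ptges3 most like Msh6 (9.33, 5.99 and 9.99).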

How the data were processed

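RNA of motor cortex from 3 rats of 1 group was analysed, 1 library per animal. Libraries were made from mRNA separated from purified total RNA, per the labels' protocols. The deposited values are FPKM. The authors counted, normalized and scripted these FPKM from fragments of each gene, per the design text in the labels. The submitters' processing notes list HISAT2 2.0.4, StringTie 1.3.0 and build Rnor_6.0. Neither the kind of library scaling nor the use of strand in counting is given in the sources used here. A large transcript share in a library lowers all its other FPKM.

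The members and gene lists were chosen with earlier results of these data known. Values were taken as log2(FPKM + 1), which understates differences of low genes. The 13754 genes averaging 1 FPKM or more were tested. The residual variance of an intercept fit in limma 3.58.1 (R 4.3.3, trended robust prior) was compared with its prior by a one-sided F test, with Benjamini-Hochberg over all genes tested and a threshold of 0.05. This step was tested on simulated data. The 13 pairs of genes were compared within rats by exact two-sided sign-flip tests, which cannot go below 0.25 with 3 rats, so the p-values could not pass 0.05.

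Depth was the value at which loci of at most 400 bp gave most whole fragments (15350000, 17250000 and 13020000 in rats 12, 24-4 and 33, with 90.8%, 90.7% and 91.3% of values whole within 0.02). Multiples of these depths give nearly as many, and the smallest was used. For genes with a mean FPKM under 2, fragments were the smallest whole numbers, within 0.02 and up to 40, that fitted all 3 rats at 1 length of at least 400 bp. These settings were chosen after seeing the data. The search was checked at 293 loci of up to 3000 bp whose values were whole, within 0.02 and up to 40, at their known length. Of these, 270 gave the same numbers. There the search stopped at the known length, while for the genes reported here it could run to the whole locus. The check therefore does not measure accuracy for these genes. Intervals (exact Poisson, 95%) cover counting error only and assume these numbers. Their overlap does not test a difference between rats or genes.

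Named were all members, genes of the fixed lists (highest, lowest, largest range, direct partners, zeros) and the 3 genes most like each tested member. Values of further listed genes were added after they were seen. Of several rows with 1 name, the more abundant was taken. Of 99 marker genes in 13 lists, 95 were matched. Alternatives were other pseudocounts (0.1 and 0.5), filters, priors, scalings, means in place of medians and leaving out each rat. Other steps used scipy 1.17.1, pandas 2.3.3 and numpy 2.4.6 under Python 3.11.15.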

Additional observations from a re-analysis of the deposited data

How the results depend on the processing

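No member passed the adjusted limma test in any of the 10 alternatives, which were pseudocounts of 0.1 and 0.5, a mean FPKM of at least 0.1, no filter, a prior that is not robust, the mitochondrial genome left out, median-of-ratios scaling, and each rat left out. Over all genes the number called ran from 0 (lower filter, no filter, prior not robust, mitochondrial genome left out, without rat 24-4) to 104 (without rat 12), against 14. Members' adjusted p-values ran from 0.566 (Ptgs2 without rat 33) to 0.999. Without rat 12, Ptges fell under the filter and was not tested. Of 91 alternatives for the 13 pair differences, 90 kept their sign. The exception was Ptger1 minus Ptger4, which was 0.0265 without rat 33, and ran from -0.13 to 0.0265 over the rats left out. Sizes moved more. Without rat 12, Ptgs1 minus Ptgs2 was -0.21 in place of -0.76, Ptger2 minus Ptger4 was 0.18 in place of 0.29 and Ptger2 minus Ptger3 was -0.31 in place of -0.15, the last being -0.01 without rat 33. At a pseudocount of 0.1, Ptger1 minus Ptger2 was -1.23, Ptger1 minus Ptger3 -1.61, Ptger1 minus Ptger4 -0.21, Ptger2 minus Ptger3 -0.38, Ptger2 minus Ptger4 1.02 and Ptger3 minus Ptger4 1.40. At 0.5 the shifts were smaller, with Ptger1 minus Ptger2 at -0.58 and Ptger3 minus Ptger4 at 0.71. The synthase median was 5.21 with means over members and 5.29 with mitochondrial genes dropped. The receptor median was -1.43 and -0.36 with pseudocounts of 0.1 and 0.5. Leaving out the mitochondrial genome, 26.6%, 14.4% and 20.9% of FPKM in rats 12, 24-4 and 33, raised all other values by 0.45, 0.22 and 0.34 (log2), and Ptgs1 was then lowest in rat 24-4. No paired analysis was possible because there was 1 group. The receptors' values correspond to 2 to 35 estimated fragments, the smallest numbers that fitted, so their counting error is itself uncertain.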

Other observations

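Genes of the lipoxygenase branch, which makes leukotrienes from the same arachidonic acid, were also measured. Ltc4s, the leukotriene C4 synthase gene, had an FPKM of 2.70, 8.82 and 15.5 in rats 12, 24-4 and 33, with an unadjusted limma p of 0.00947 and an adjusted p of 0.545. Alox5ap, the activating protein of 5-lipoxygenase, had 2.30, 3.40 and 5.82, and Lta4h, the leukotriene A4 hydrolase gene, had 16.2, 22.2 and 27.1. These 3 of the 4 tested genes had the order of rats 33, 24-4, 12, which was also that of Ptgs1 in the deposited scaling. Over all genes tested, 42% were highest in rat 33 and 37.9% lowest in rat 12, and the share with this whole order is not given here. Alox5 itself had 1.14, 0.609 and 0.562, and Alox15 had 1.68, 1.57 and 0.243. All 11 listed genes of the branch were matched, 4 were tested, and 0 passed the adjusted limma test, with a median deviation of -0.43, 0.14 and 0.44. The microglial marker list had a median deviation of -0.71, 0.03 and 0.72 in the same order, and its part in these values was not tested.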
